A study of Mus musculus with 18 samples.

Results

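The MHC class I pathway shows peptides from inside a cell to cytotoxic T cells. It is described here through 9 mouse genes, of 47728 gene identifiers in the bulk table and 28692 in the single-cell tables. The genes were chosen by name, with earlier results of these data known. They are the heavy chains H2-K1 and H2-D1, the light chain B2m, the peptide transporter subunits Tap1 and Tap2, the inducible proteasome subunits Psmb8 and Psmb9, and the transcriptional regulators Irf1 and Nlrc5. All 9 passed the filter on low counts that left 17571 genes for testing. In a working cell the proteasome cuts proteins, the TAP transporter moves the peptides into the endoplasmic reticulum, and heavy chain, light chain and peptide leave together for the surface. Interferon-gamma induces the pathway in part through IRF1, and the MHC enhanceosome with NLRC5 acts on most of the other genes of the pathway. Myogenic cells are generally described as low in surface class I until inflammation.

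The study compared muscle progenitors made from mouse pluripotent stem cells with progenitors taken from tissue, in 15 bulk RNA libraries (5 groups of 3) and in droplet single-cell libraries. The iPax3 and iPax7 groups came from embryonic stem (ES) cells whose strain the labels do not give; Vcam1+Flk1- cells were sorted out of embryoid bodies and grown through 3 passages with Dox and bFGF. The Emb (E10.5) and Fet (E14.5) groups are labelled as myoblasts of the strain My5Cre Rosa26YFP, in which recombination turns on the YFP label, and the Neo group as satellite cells of postnatal day 3 hindlimb muscle of Pax7-ZsGreen mice. The single-cell libraries held adult tibialis anterior cells of 3 months old Pax7-ZsGreen mice and iPax3 cells. No label says whether replicates came from separate animals or cultures, so p-values measure only the spread between these libraries, which may be technical. In contrasts of Neo with Emb or Fet, stage, strain and reporter change together and cannot be told apart. Engrafted cells were not analysed here.

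Several libraries stood apart or went against their labels. Total counts ran from 516504 (Fet replicate 1) to 56275318 (iPax3 replicate 1). In the Neo libraries Pax7, the regulator that defines satellite cells, lay at a mean of 3.23 CPM (read counts put on the same total for each library; range 0.495 to 5.12), below the 43.8 CPM of Fet and the 27.8 CPM of Emb. The endothelial genes Pecam1 and Cdh5 lay there at 795 CPM and 634 CPM, against 65.4 and 77.3 CPM in Fet. Over 18 endothelial markers the summed level was 3190 to 4170 CPM in Neo, 306 to 717 in Fet, 38.8 to 83.2 in Emb, 43.9 to 68.4 in iPax3 and 33.8 to 182 in iPax7, and none of the 18 was at 0 in any Neo library. Over 20 immune markers it was 353 to 1050 CPM in Neo, with 0 to 7 markers at 0, 84.7 to 148 in Fet and at most 51 elsewhere; Ptprc, the pan-leukocyte CD45 gene, was at 83.3 CPM in Neo, 17.1 in Fet and at 0 in every iPax7 library. The Neo libraries are therefore called by their label only. Replicate 1 of iPax7 held 0.989 CPM of Pax7 against a group mean of 154, and its summed level of 12 pluripotency markers was 5050 CPM against 15.9 and 9.33 CPM in replicates 2 and 3. Fibroblast markers summed to 25700 to 74800 CPM in Neo and 23300 to 27300 CPM in Fet, and to at most 2220 CPM elsewhere.

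The sequences that bear on the shared behaviour of the genes are their promoters, since the pathway is classically wired through a few short elements upstream of each start. Promoters were read from RefSeq (GRCm38.p6), where 7 of the 9 genes matched; the 200 bases just upstream of the start are printed 5′ to 3′ on the gene's own strand for the heavy chains, the light chain and Irf1. Capitals mark, on either strand, the interferon-stimulated response element core (GAAANNGAA, or GAANNGAAA when read from its other end), the gamma-activated site (GAS, TTCNNNGAA), the kappaB consensus, the cyclic-AMP element core TGACG and the CCAAT box.
H2-K1, chr17:34000334-34000533 (minus strand): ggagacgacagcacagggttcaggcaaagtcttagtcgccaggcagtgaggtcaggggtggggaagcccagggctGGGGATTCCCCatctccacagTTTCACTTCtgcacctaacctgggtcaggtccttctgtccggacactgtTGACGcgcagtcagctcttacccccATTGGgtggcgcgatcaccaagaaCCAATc
H2-D1, chr17:35262894-35263093 (plus strand): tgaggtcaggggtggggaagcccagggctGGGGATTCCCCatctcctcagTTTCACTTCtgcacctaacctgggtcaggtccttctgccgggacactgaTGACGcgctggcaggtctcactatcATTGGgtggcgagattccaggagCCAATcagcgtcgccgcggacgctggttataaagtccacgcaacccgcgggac
B2m, chr2:122147487-122147686 (plus strand): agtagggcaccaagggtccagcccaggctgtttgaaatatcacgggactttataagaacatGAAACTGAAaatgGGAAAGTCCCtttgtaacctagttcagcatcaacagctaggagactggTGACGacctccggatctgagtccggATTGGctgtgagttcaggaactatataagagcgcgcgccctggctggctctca
Irf1, chr11:53769814-53770013 (plus strand): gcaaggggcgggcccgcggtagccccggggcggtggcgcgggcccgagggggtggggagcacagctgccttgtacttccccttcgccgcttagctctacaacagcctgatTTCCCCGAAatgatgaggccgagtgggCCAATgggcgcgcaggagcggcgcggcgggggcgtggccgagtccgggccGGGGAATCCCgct

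The 2 heavy chain promoters are near copies: 222 of 253 aligned bases of their longer windows (87.7%) are the same, and both carry, in the same order, a kappaB match, a response element core, TGACG and 2 CCAAT boxes. The B2m window holds the same classes of element, with its response element core upstream of the kappaB match, and the Irf1 window holds a GAS, a CCAAT box and a kappaB match close to the start. In windows of 250 bases before to 50 after the start, Psmb8 held a GAS and no other of these motifs. By the RefSeq starts, Tap1 and Psmb9 are transcribed away from each other from points 225 bases apart, and their windows share 275 bases, with a TGACG and a CCAAT match in each. Of 32851 promoters in the table, the kappaB consensus occurs in 4.51%, the GAS in 8.3%, the response element core in 8.56% (7.52% from its other end), TGACG in 20.8% and CCAAT in 37.4%. A match is a description of letters and was not tested for binding.

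Of the 9 genes, 6 lie on chromosome 17 (GRCm38), in the MHC. H2-K1 spans 33996017 to 34000347 on the minus strand, Psmb9 34181987 to 34187764 (minus), Tap1 34187553 to 34197225 (plus), Psmb8 34197721 to 34201454 (plus), Tap2 34203527 to 34216321 (plus) and H2-D1 35262730 to 35267499 (plus). These are GENCODE gene ends, which differ from the RefSeq starts used for the promoters: the H2-D1 window printed above lies inside the GENCODE gene, and Tap1 and Psmb9 overlap in GENCODE but not by their RefSeq starts. B2m lies on chromosome 2 (122147686 to 122153083, plus), Irf1 on chromosome 11 (53770014 to 53778374, plus) and Nlrc5 on chromosome 8 (94434356 to 94527272, plus). Counts of the heavy chains are uncertain, in part because they share sequence. In H2-K1 transcripts 8.79% of the 50-base windows, and in H2-D1 14.3%, occur also in other genes, H2-D1 and H2-Q1 being the closest. All reads were set against mm10, and the MHC haplotypes of the ES cells and mice are not given. The part of haplotype in the heavy chain counts was not tested. How reads that fit several genes were counted is not given in the sources used here. Exons of Tap1 and Psmb9 overlap by 212 bases on opposite strands, and Tap2, Psmb8, Irf1 and Nlrc5 overlap opposite-strand genes by 78 to 533 bases; without a stated strand setting, reads from such stretches cannot be told apart.

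H2-K1, a heavy chain that binds peptide, was higher in each later tissue group and was low in PSC-derived cells. H2-K1, the K-locus heavy chain, was counted at 1.24, 0.114 and 0.147 CPM in Emb replicates 1 to 3, at 5.19, 12.9 and 3.49 CPM in Fet, and at 191, 212 and 169 CPM in Neo. The 3 tissue groups did not overlap for H2-K1. It was at 1.19, 4.10 and 0.343 CPM in iPax3 and at 22.7, 5.81 and 5.92 CPM in iPax7, so that every iPax7 library lay above every iPax3 library and both groups lay below Neo. H2-K1 rose from Emb to Fet (log2 fold change 3.94 ± 1.01 SE, edgeR quasi-likelihood adjusted p = 0.04), from Fet to Neo (4.67 ± 0.99, adjusted p = 0.019) and from Emb to Neo (8.60 ± 1.19, adjusted p = 0.00016).

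H2-D1, the D-locus heavy chain, did not follow H2-K1 in the embryo. It was at 2.78, 18.8 and 30.5 CPM in Emb, and the pair of Emb libraries with the least H2-K1 held the most H2-D1. In Fet it was at 0, 13.0 and 12.3 CPM, the 0 being in the shallowest library, where the 5.19 CPM of H2-K1 stood for 3 counts. Fet and Emb overlapped for H2-D1 (−0.83 ± 0.82, adjusted p = 0.63). Neo lay far above at 302, 248 and 227 CPM, higher than Fet by 4.73 ± 0.94 (adjusted p = 0.014) and higher than Emb by 3.90 ± 0.90 (adjusted p = 0.0075) on the log2 scale. The PSC-derived cells were low, with 5.30, 7.17 and 1.45 CPM in iPax3 and 14.2, 3.68 and 4.44 CPM in iPax7.

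B2m, the light chain that every class I molecule needs, was detected in all 15 libraries. Its level was 42.9, 57.8 and 68.7 CPM in iPax3, 35.4, 61.2 and 58.4 CPM in iPax7, and 50.1, 55.9 and 65.0 CPM in Fet, 3 groups that overlap. Emb was scattered, at 15.5, 54.1 and 0.956 CPM, and Neo was the highest at 220, 183 and 90.9 CPM. Only the step from Emb to Neo passed the test (2.81 ± 0.82, adjusted p = 0.027), and it no longer did without Emb replicate 1, Neo replicate 1 or Neo replicate 2 (adjusted p up to 0.065). All Neo libraries lay above all iPax3 libraries, but the difference iPax3 minus Neo of −1.55 ± 0.78 was not called (adjusted p = 0.16), nor was iPax7 minus Neo at −1.67 ± 0.78 (adjusted p = 0.14) or Neo minus Fet at 1.53 ± 0.79 (adjusted p = 0.31). Without Emb replicate 3, both PSC-derived contrasts with Neo passed (adjusted p = 0.017 and 0.015).

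Per exon length, the light chain stood far above the heavy chains in iPax3. FPKM here are counts scaled by library size and by all annotated exon bases of a gene. That length can exceed 1 transcript: Tap1 has 5476 exon bases, and its longest coding transcript holds 2904 windows of 50 bases. Levels of different genes therefore compare only roughly. The mean B2m level in iPax3 was 65.7 ± 15 FPKM (SD, n = 3), against 0.639 ± 0.671 for H2-K1 and 1.8 ± 1.13 for H2-D1. In Neo, H2-K1 reached 65 ± 7.33 and H2-D1 100 ± 14.9 FPKM on the same scale, beside 192 ± 77.5 FPKM of B2m.

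**Figure D1:**
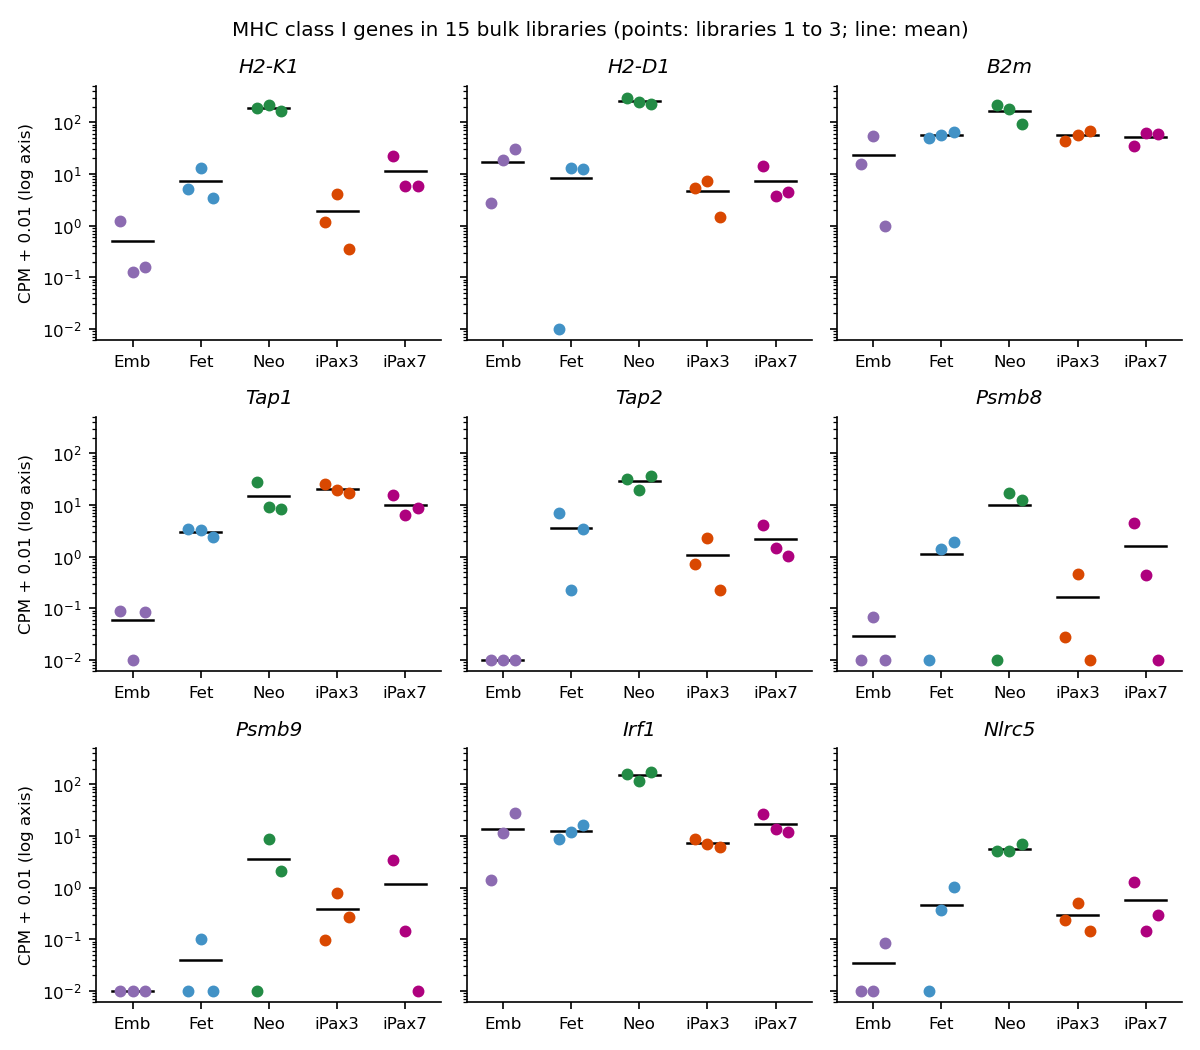
Level of each of the 9 genes in every bulk library, as CPM plus 0.01 on a log axis; points are libraries 1 to 3 of a group and lines are group means. H2-K1 climbs from 0.114 to 1.24 CPM in Emb to 169 to 212 CPM in Neo, B2m lies at 35.4 to 68.7 CPM in every iPax3, iPax7 and Fet library, and Tap1 is as high in iPax3 as in Neo.

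Both peptide transporter genes were higher in PSC-derived cells than in Emb. Tap1, the subunit encoded back to back with Psmb9, was at 25.1, 19.7 and 17.3 CPM in iPax3 and at 15.4, 6.49 and 8.54 CPM in iPax7. In Emb it was at 0.0773, 0 and 0.0736 CPM, that is 1, 0 and 1 counts. Tap1 was higher than in Emb by 8.60 ± 1.33 on the log2 scale in iPax3 (adjusted p = 0.00045) and by 7.57 ± 1.28 in iPax7 (adjusted p = 0.0014), and no left-out library ended these calls (highest adjusted p 0.003 and 0.0046).

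Tap1 in iPax3 overlapped the neonatal level. Neo held 27.3, 8.98 and 8.43 CPM, and iPax3 minus Neo came to 0.47 ± 0.92 (adjusted p = 0.75). iPax7 minus Neo was −0.56 ± 0.92 (adjusted p = 0.72). Fet, at 3.46, 3.29 and 2.35 CPM, lay below every iPax3 and iPax7 library, yet iPax3 minus Fet (2.79 ± 1.0, adjusted p = 0.095) was called only without Emb replicate 2 (adjusted p = 0.041). Fet was above Emb by 5.80 ± 1.23 (adjusted p = 0.015), a call lost without Fet replicate 2 (adjusted p = 0.053). All iPax3 libraries lay above all iPax7 libraries for Tap1, with iPax7 minus iPax3 at −1.03 ± 0.92 (adjusted p = 1).

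Tap2, the partner subunit, had no count in any Emb library. Fet held 6.92, 0.213 and 3.35 CPM and Neo 31.8, 19.9 and 36.7 CPM, while iPax3 held 0.700, 2.26 and 0.211 CPM and iPax7 4.03, 1.45 and 1.02 CPM. Its group mean CPM was set over a floor of 3 counts over the Emb group. This gave 432-fold in Neo, 51.3-fold in Fet, 31.8-fold in iPax7 and 15.5-fold in iPax3. The Fet mean leans on the 6.92 CPM of replicate 1, which stood for 4 counts, so 51.3-fold is not a firm lower bound. All 4 contrasts passed the test (adjusted p = 0.0019, 0.028, 0.015 and 0.02, in the same order). The Fet call was lost without Emb replicate 2 or 3 or Fet replicate 1 or 3 (adjusted p up to 0.082), and the iPax3 call without iPax3 replicate 2 or Emb replicate 2 or 3 (up to 0.068).

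Scaled by exon bases, Tap1 exceeded Tap2 in every iPax3 and iPax7 library and Tap2 exceeded Tap1 in every Neo library. The scale divides Tap1 by 5476 and Tap2 by 3781 exon bases. Their longest coding transcripts hold 2904 and 3393 windows of 50 bases. The order in Neo replicate 1, at 4.99 FPKM of Tap1 and 8.4 FPKM of Tap2, therefore depends on the length used. In iPax3 Tap1 was at 3.15 to 4.59 FPKM and Tap2 at 0.0558 to 0.599 FPKM, in iPax7 at 1.18 to 2.8 and 0.271 to 1.07 FPKM, and in Neo at 1.54 to 4.99 and 5.27 to 9.71 FPKM. iPax3 had less Tap2 than Neo by 4.79 ± 1.47 on the log2 scale (iPax3 minus Neo −4.79, adjusted p = 0.031), a call lost when iPax3 replicate 1, 2 or 3 or Neo replicate 1 or 3 was left out (adjusted p up to 0.12). For iPax7 the difference of −3.76 ± 1.4 missed the threshold (adjusted p = 0.074).

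The inducible proteasome subunits were at or near 0 in many libraries. Psmb8 (LMP7), which replaces the constitutive catalytic subunit Psmb5 in the immunoproteasome, was at 0, 17.3 and 12.6 CPM in Neo and at 0, 1.4 and 1.92 CPM in Fet. Psmb8 was at 0.0175, 0.453 and 0 CPM in iPax3, at 4.4, 0.439 and 0 CPM in iPax7 and at 0, 0.0572 and 0 CPM in Emb. Psmb9 (LMP2), the partner of Psmb6, had no count in Emb, 3 counts in all of Fet, and 0, 8.65 and 2.11 CPM in Neo; it was at 0.0875, 0.787 and 0.264 CPM in iPax3 and 3.37, 0.135 and 0 CPM in iPax7. Every group but iPax3 had a library at 0 for Psmb9, and every group had one at 0 for Psmb8.

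Neo replicate 1 stood apart for this class. It had no count of Psmb8 or Psmb9 in 16917199 total counts, although its H2-K1 level lay between those of the other Neo libraries and its H2-D1 and B2m levels above them. Psmb10, the third inducible subunit, was at 0.0415 FPKM there against 8.90 and 7.94 FPKM in Neo replicates 2 and 3. Neo minus Emb was called for Psmb8 (8.53 ± 2.89, adjusted p = 0.047) and for Psmb9 (group mean 52.6-fold the Emb floor, adjusted p = 0.045). Each call was lost in 12 of the 15 fits that leave out 1 library, with adjusted p up to 0.11. The fits that kept it left out iPax7 replicate 1, iPax7 replicate 3 or Neo replicate 1.

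Set against the constitutive partner on the FPKM scale, Psmb8 made up 18.8% and 11.4% of Psmb8 plus Psmb5 in Neo replicates 2 and 3, and at most 1.34% in any library of another group. Psmb9 made up 11.8% and 5.38% of its pair in the same libraries and at most 1.24% elsewhere. The scale divides Psmb8 by 3381 and Psmb9 by 3660 exon bases. Their longest coding transcripts hold 1579 and 1303 windows of 50 bases, so these shares may be understated. Psmb10 made up 12.2% to 17.4% of its pair with Psmb7 in all 6 PSC-derived libraries, 5.99% to 11.3% in Fet and 0.51% to 16.7% in Emb, and 0.223%, 38.1% and 31% in Neo replicates 1 to 3, which hold both the lowest and the highest shares. Of 14 constitutive proteasome genes, 9 were higher in iPax3 than in Neo and 7 higher in iPax7 than in Neo, with none lower. Over all tested genes 11.3% and 9.83% were higher in these contrasts, and 11.3% and 8.37% lower. The medians of the 14 were 1.74 and 1.64 against 0.20 and 0.30 over all tested genes. Among them Psma3 was at 302 CPM in iPax3 and 60.8 CPM in Neo (2.31 ± 0.38, adjusted p = 0.00046).

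**Figure D2:**
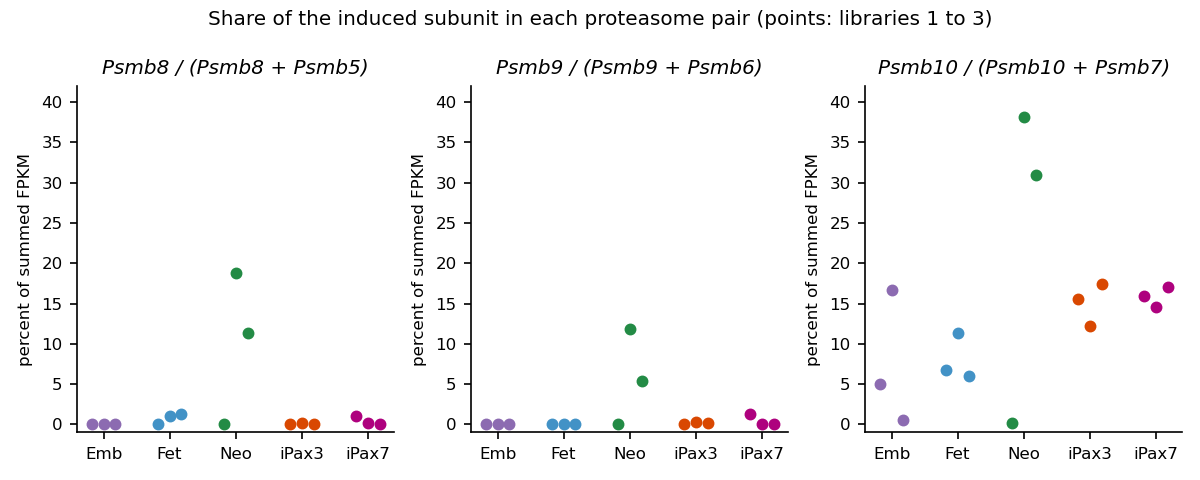
Share of each inducible proteasome subunit in its pair with the constitutive subunit, in percent of the summed FPKM, for the 3 libraries of each group. Psmb8 and Psmb9 exceed 5% of their pair only in Neo replicates 2 and 3, while Psmb10 lies between 12.2% and 17.4% in all iPax3 and iPax7 libraries and at 0.223%, 38.1% and 31% in Neo.

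Irf1, the interferon-regulatory factor whose own promoter carries the GAS and kappaB matches printed above, was at 157, 114 and 175 CPM in Neo and at 27.7 CPM or less in every other library. Emb held 1.39, 11.4 and 27.7 CPM, Fet 8.65, 11.7 and 16.3 CPM, iPax3 8.59, 6.94 and 6.14 CPM and iPax7 26.1, 13.9 and 11.7 CPM. Emb spanned the range of the other 3 groups, and every iPax3 library lay below every iPax7 and every Fet library. For Fet the order rests on 8.59 CPM in iPax3 replicate 1 against 8.65 CPM in Fet replicate 1, which stood for 5 counts. Irf1 rose from Fet to Neo by 3.56 ± 0.75 (adjusted p = 0.019) and from Emb to Neo by 3.46 ± 0.74 (adjusted p = 0.0047). iPax7 minus iPax3 was 1.25 ± 0.68 and not called (adjusted p = 0.95).

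Nlrc5, the class I transactivator, was at 5.02, 5.06 and 6.92 CPM in Neo. It was at 0, 0.366 and 0.998 CPM in Fet, at 0, 0 and 0.0736 CPM in Emb, at 0.228, 0.501 and 0.132 CPM in iPax3 and at 1.28, 0.135 and 0.285 CPM in iPax7. Every Neo library lay above every other library. Its rise from Emb to Neo (7.59 ± 1.88, adjusted p = 0.011) kept its call in all 15 fits that leave out 1 library (adjusted p 0.012 to 0.035). The constitutive factors that share the MHC promoters with Nlrc5 (the RFX, NF-Y and CREB families, 8 genes) gave 0 higher and 1 lower in Neo than in Emb. Their median was −0.48, beside 0.00 over all tested genes. Over all tested genes 11.7% were higher and 8.43% lower, so the count for these 8 is near the background.

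Counted together along the tissue series, 3 of the 9 genes were higher in Fet than in Emb (H2-K1, Tap1 and Tap2) and none was lower, where 2.89% of all tested genes were called higher and 0.763% lower. The median log2 fold change of the 9 was 3.94 against 0.18 over all tested genes, and 4.10 over 8 genes when Tap2 is set at its bound and Psmb9, under the floor in both groups, is left out. From Fet to Neo 3 rose (H2-K1, H2-D1 and Irf1), against 1.37% of genes higher and 1% lower; the medians were 3.32 and −0.14. From Emb to Neo all 9 were called higher, against 11.7% of genes higher and 8.43% lower, with medians of 8.13 and 0.00, or 7.59 with Tap2 and Psmb9 at their bounds.

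These counts leaned on single libraries. The step from Fet to Neo went to 0 calls without Fet replicate 2 or Fet replicate 3, and to 1 call without Fet replicate 1, Neo replicate 1 or Neo replicate 2, H2-K1 reaching an adjusted p of 0.12, H2-D1 0.078 and Irf1 0.12. The step from Emb to Fet went to 1 call without Emb replicate 2 or 3 or any Fet replicate. For H2-K1 that call was lost in 9 of the 15 fits, those without iPax3 replicate 1, Emb replicate 2 or 3, or any of the Fet and Neo replicates (adjusted p up to 0.18). Leaving out both the shallow Fet replicate 1 and the Pax7-poor iPax7 replicate 1 left 2 calls from Emb to Fet, 3 from Fet to Neo and 8 from Emb to Neo. Every single-library fit kept 6 to 9 of the 9 calls from Emb to Neo.

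The PSC-derived cells were then set against each stage. Against Emb, iPax3 had 2 of the 9 higher (Tap1 and Tap2), where 9.34% of genes were called higher and 7.64% lower, and iPax7 had 3 higher (H2-K1, Tap1 and Tap2), where 8.51% were higher and 5.54% lower. The medians of the 9 were 2.59 and 4.55, or 2.48 and 4.29 with Tap2 and Psmb9 at their bounds, beside 0.24 and 0.36 over all genes. H2-K1 in iPax7 exceeded Emb by 4.55 ± 1.01 (adjusted p = 0.0087). H2-D1 went the other way in iPax3 (iPax3 minus Emb −1.90 ± 0.83, adjusted p = 0.13), and without Emb replicate 1, the library with the least H2-D1, this passed the test (adjusted p = 0.037). The iPax3 count against Emb ran from 1 call (without iPax3 replicate 2 or Emb replicate 3) to 5 calls (without Emb replicate 1).

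Against Fet, none of the 9 genes was called in iPax3 or in iPax7. For iPax3 2.85% of all genes were higher and 5.68% lower, and for iPax7 0.95% were higher and 2.75% lower. At an unadjusted p under 0.05, 2 of the 9 differed for iPax3 and 0 for iPax7, beside 4052 and 3103 of the 17571 tested genes, and DESeq2 called 1 and 0. The medians, −0.96 and 0.33, lay beside 0.03 and 0.15 over all tested genes. A p that misses the threshold does not show that the levels were alike: the standard errors of the 9 iPax3 contrasts ran from 0.69 (Irf1) to 2.42 (Psmb9) on the log2 scale.

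Against Neo, iPax3 had 4 of the 9 lower (H2-K1, H2-D1, Tap2 and Irf1) and none higher, where 11.3% of genes were called lower and 11.3% higher. iPax7 had 3 lower (H2-K1, H2-D1 and Irf1) and none higher, against 8.37% lower and 9.83% higher. H2-K1 differed by −6.66 ± 1.07 for iPax3 minus Neo (adjusted p = 0.00041) and −4.05 ± 0.95 for iPax7 minus Neo (adjusted p = 0.0084), H2-D1 by −5.80 ± 0.98 (adjusted p = 0.00066) and −5.12 ± 0.95 (adjusted p = 0.002). Irf1 differed by −4.36 ± 0.77 (adjusted p = 0.00089) and −3.11 ± 0.73 (adjusted p = 0.0085). These 6 calls stood in every fit that leaves out 1 library, with a highest adjusted p of 0.044. The medians of the 9 genes were −4.36 and −3.11 beside 0.20 and 0.30 over all genes. These contrasts, like those of Neo with Emb and Fet, share the Neo libraries.

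Between the 2 PSC-derived groups no member was called by edgeR or by DESeq2, where 0.0569% of genes were higher in iPax7 and 0.0171% lower, and 1 member (H2-K1) had an unadjusted p under 0.05, as did 1083 of the 17571 tested genes. H2-K1 was higher in iPax7 by 2.61 ± 0.89 (adjusted p = 0.51). Of the iPax7 libraries, replicate 1 was the highest for H2-K1, H2-D1, Tap1, Tap2, Psmb8, Psmb9, Irf1 and Nlrc5, and the lowest for B2m. That library was also the one with 5050 CPM of pluripotency markers, whose part in its class I levels was not tested. Its endothelial sum, 182 CPM, was the highest of its group. Single endothelial markers differed in iPax7: the group means were 34.2 CPM for Pecam1 (0.665 in iPax3), 23.5 for Eng and 6.77 for Tek. Cdh5, Kdr and Tie1 reached at most 0.285, 0.476 and 1.25 CPM, and Emcn was at 0. The part of endothelial cells in these levels was not tested.

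**Figure D3:**
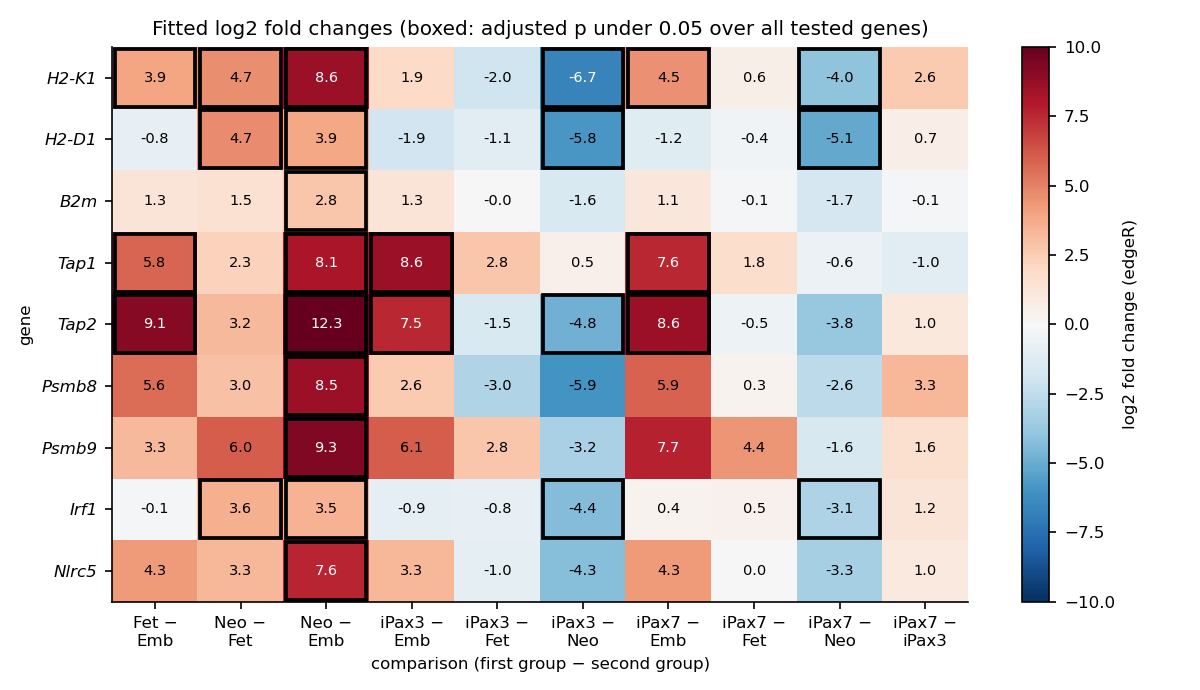
Fitted log2 fold changes of the 9 genes (rows) in the 10 pairs of groups (columns), first group minus second; boxes mark an adjusted p under 0.05 over 17571 genes. All 9 genes are boxed for Neo minus Emb and none for iPax3 minus Fet, iPax7 minus Fet or iPax7 minus iPax3.

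Of 14 genes that load, trim or prepare peptides, 3 were higher in Neo than in Emb and none lower: Lnpep (3.1 ± 0.86, adjusted p = 0.022) and Erap1 (4.72 ± 1.39, adjusted p = 0.027), aminopeptidases that trim peptides, and Tapbp (2.28 ± 0.71, adjusted p = 0.034), tapasin of the loading complex. Their median was 0.40. In iPax3 3 of the 14 were higher than in Emb and 2 higher than in Neo, among them the chaperone calnexin, Canx, at 1550 CPM in iPax3 and 799 CPM in Neo (0.96 ± 0.20, adjusted p = 0.003). None of the 14 was lower in iPax3 or iPax7 than in Neo. Over all tested genes 11.7% were higher in Neo than in Emb, 9.34% higher in iPax3 than in Emb and 11.3% higher in iPax3 than in Neo, so that 2 of 14 is near the background.

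Other class I and class I-like heavy chains included 12 tested genes. Of these, 4 were higher in Neo than in Emb (Mr1, Fcgrt, H2-Q10 and H2-T23), against 11.7% of all tested genes. Lower in iPax3 than in Neo were 4 (Fcgrt, H2-T24, H2-Q4 and H2-Q7), against 11.3%. The medians of the 12 were 3.65 and −3.56. In iPax3 1 was higher and 2 lower than in Emb (9.34% and 7.64% of all tested genes). None was called in iPax7 against Neo (9.83% higher and 8.37% lower). Fcgrt, the neonatal Fc receptor, was at 65.3 CPM in Neo and 0.762 CPM in iPax3. H2-Q7, a Qa-2 gene, had no count in iPax3 and was at 6.19 CPM in Emb and 3.87 CPM in Neo. Mr1, which presents vitamin B metabolites, had no count in Emb and was at 4.02 CPM in iPax3 and 7.57 CPM in iPax7. These genes are near copies of each other in part, so their counts are uncertain.

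Of 17 interferon receptor and signalling genes 5 were higher in Neo than in Emb and none lower, with a median of 2.46; Jak2 was at 193 CPM against 35.1 CPM and Socs3, a feedback inhibitor of cytokine receptors, at 199 against 8.52 CPM. Of 27 tested interferon-stimulated genes 17 were higher in Neo than in Emb and 2 higher in Neo than in Fet (Gbp3 and Ifitm3). Of 8 NF-kappaB genes 3 were higher in Neo than in Fet: Nfkbia, the inhibitor that is itself a target, at 530 against 29.2 CPM, Rel at 198 against 18.1 CPM and Tnfaip3 at 178 against 15.4 CPM. In iPax3 and iPax7, 8 and 10 of the 27 interferon-stimulated genes were higher than in Emb, led by Ifi35, which had no count in Emb and was at 9.75 and 8.28 CPM. The shares of all tested genes called higher were 11.7% in Neo against Emb, 1.37% in Neo against Fet, 9.34% in iPax3 against Emb and 8.51% in iPax7 against Emb.

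The same libraries were also high for genes of other cells. Of 5 tested MHC class II genes, which most cells express little of outside antigen-presenting cells, 4 were higher in Neo than in Emb; the invariant chain Cd74 was at 30.6 CPM in Neo, 0.0191 CPM in Emb and 0.143 CPM in iPax3. The summed class II level was 40.9 to 187 CPM in Neo, 9.55 to 25.9 in Fet and at most 4.87 elsewhere. Of 18 endothelial markers 15 and of 18 tested immune markers 13 were higher in Neo than in Emb. Over all tested genes 11.7% were higher in Neo than in Emb and 1.37% higher in Neo than in Fet. Of 15 immediate early genes, which dissociation of tissue can induce, 10 were higher in Neo than in Fet and all 15 higher than in Emb, and their sum was 16800 to 19300 CPM in Neo against 3380 to 5190 CPM in Fet and at most 756 CPM elsewhere. The part of endothelial or immune cells, and of dissociation, in the class I levels of Neo was not tested, and in bulk RNA more cells of a type and more RNA per cell cannot be told apart.

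**Figure D4:**
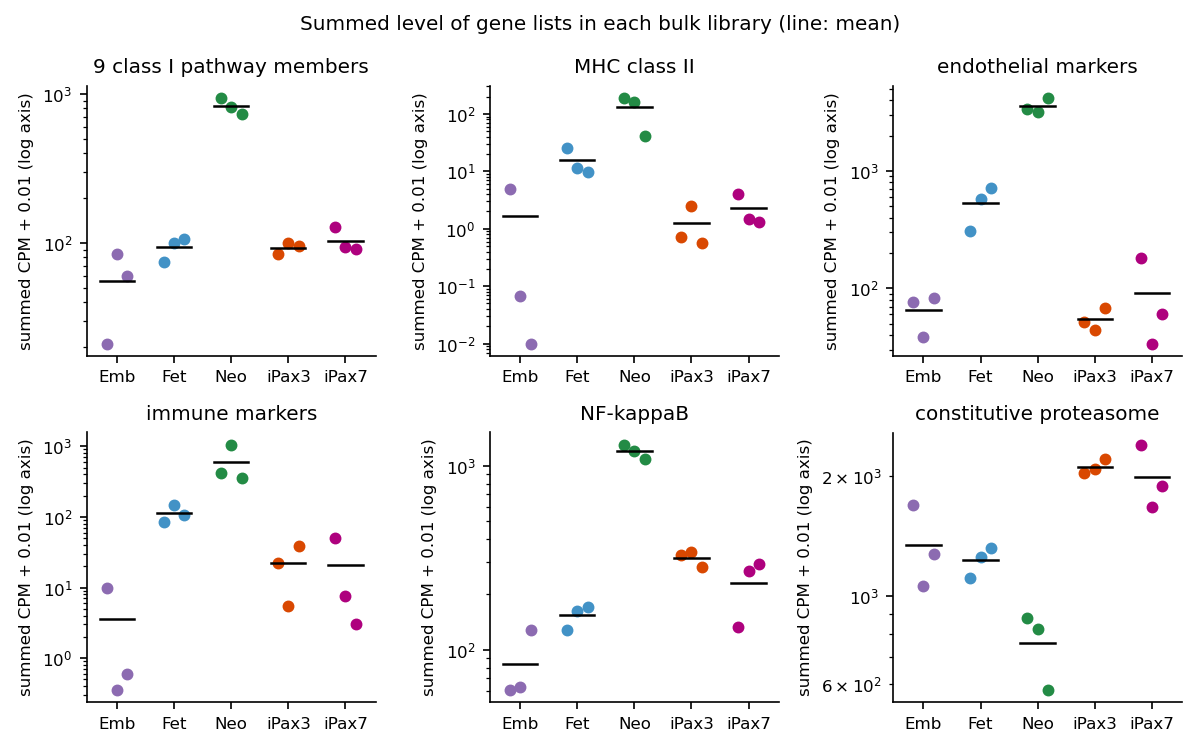
Summed level of 6 gene lists in each bulk library, in CPM plus 0.01 on a log axis, with the group mean as a line. The class I sum is 729 to 934 CPM in Neo and at most 127 CPM elsewhere, and the endothelial (3190 to 4170 CPM), immune, class II and NF-kappaB sums are also highest in Neo, while the constitutive proteasome sum is lowest there (578 to 878 CPM).

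Likeness to H2-K1 was described by Pearson's r of log2 CPM over the 15 libraries, which share the group structure; no p is given. Among the closest genes outside the members were Lama3 (r = 0.955), Bhlhe40, Epas1, Parp14, Hmcn2, Cav1, Bcl3, Vsir and Crip1 (r = 0.922). Among all genes, Tap2 ranked 52nd (r = 0.881) and Nlrc5 84th (r = 0.869), while H2-D1 ranked 2150th (r = 0.553), behind B2m (0.632) and Tap1 (0.574). Within the 9 genes the pairs with the highest r were H2-K1 with Tap2 (0.88), H2-K1 with Nlrc5 (0.87) and Irf1 with Nlrc5 (0.85), and the lowest was H2-D1 with Tap1 (0.09).

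In single cells the same 9 genes were all higher in the adult library than in the iPax3 library. The 579 adult cells held 7906996 unique molecular identifiers (UMIs; median 10765 per cell) and the 2931 iPax3 cells 41625326 (median 11716), and 1 barcode was called a cell in both. With 1 library per group there is no test. Ratios carry exact 95% intervals that cover counting error only. Of 4472 genes with at least 20 UMIs and at least 20 CPM (here UMIs scaled to a common total) in either library, 500 (11.2%) were at least 8-fold higher in adult cells; of the 5 members among them 4 were, all except B2m.

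H2-K1 was at 404 CPM (3194 UMIs) in adult cells and 0.937 (39 UMIs) in iPax3 cells, a ratio of 431 (interval 315 to 607). H2-D1 stood at 509 (4023 UMIs) and 1.56 (65 UMIs), a ratio of 326 (255 to 423). Both heavy chains thus gave few UMIs in iPax3 cells. B2m was at 464 and 87.9 CPM, a ratio of 5.27 (5.04 to 5.52), and Tap1 at 12.9 and 3.15, a ratio of 4.1 (3.13 to 5.35). The 2 genes that were high in iPax3 in bulk were therefore also those with the smallest ratios here.

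Of the remaining members, Irf1 was at 80.2 CPM in adult cells and 1.51 in iPax3 cells (ratio 53, 40.8 to 69.8). Tap2 was at 4.05 and 0.0961, the latter from 4 UMIs (ratio 42.1, 14.9 to 164), and Psmb9 at 18.1 and 0.0721, from 3 UMIs (ratio 251, 84.2 to 1231). Psmb8 had 425 UMIs in adult cells and none in iPax3 cells, which puts it at least 746-fold higher against a floor of 3 UMIs, while the exact interval of the ratio starts at 604. Nlrc5 had 10 adult UMIs and none in iPax3 cells (at least 17.5-fold against the same floor, with an exact interval that starts at 11.8).

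Free RNA limits what the adult values say about satellite cells. In the adult library, 84829 barcodes with fewer than 50 UMIs each, too few to be cells, held H2-K1 at 402 CPM, so that cells over background came to 1 (interval 0.867 to 1.17). For Psmb8 this ratio was 0.743 (0.523 to 1.09), for Psmb9 0.85 (0.449 to 1.81), for Tap1 0.551 (0.295 to 1.14) and for Irf1 0.942 (0.684 to 1.33). Tap2 (1 background UMI) and Nlrc5 (none) had too few counts to compare. H2-D1 and B2m alone among the 9 had intervals above 1, at 1.35 (1.16 to 1.58) and 1.19 (1.03 to 1.39). Cd74, a class II gene of immune cells, had 1.18 (1.1 to 1.27), the endothelial Cdh5 0.946 and Pax7 itself 0.8 (0.642 to 1.01). The adult values are therefore read as levels of the library, which cannot be told apart from free RNA for most of the 9 genes, and not as levels of satellite cells.

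Every one of the 579 adult cells held at least 2 UMIs of endothelial or immune markers, which made up 0.0513% to 1.43% of a cell's UMIs. The 289 adult cells above the median share held B2m at 534 CPM, H2-K1 at 440 and Psmb8 at 67.9, and the 290 at or under it held 383, 362 and 37.4 CPM. Tap2 was at 3.54 against 4.64 CPM, from 15 and 17 UMIs, a ratio of 0.763 whose interval (0.355 to 1.62) includes 1. The myogenic Myod1 was lower in the cells above the median share (180 against 258 CPM), while Pax7 was at 151 against 141 CPM. This split was chosen after the data were seen and its cells come from 1 library, so these values are a description with no test. In the authors' deposited table of 2 adult clusters, the mean UMI count per cell of B2m was 4.51 in cluster 1 and 12.4 in cluster 2. The authors' deposited table also put Tap1 at 0.121 and 0.413, and Cdh5 at 0.224 and 1.14, in the same order. The authors' deposited table put Ptprc at 0.0751 and 0.0207 and Myod1 at 2.42 and 1.24, in the opposite order.

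H2-K1 was seen in 96.2% of adult cells and 1.26% of iPax3 cells, or in 55.6% (51.5% to 59.7%) and 0.136% (0.0372% to 0.349%) once every cell was thinned to 2000 UMIs. B2m was seen in 94% and 61.2%, or 58.4% and 16.6% when thinned. Tap1 was seen in 15.4% and 4.2% of cells, or 2.07% and 0.819% when thinned. Psmb8 was found in 267 of 579 adult cells and 0 of 2931 iPax3 cells, which allows a share of up to 0.102% of iPax3 cells with a UMI by the 3-count floor, and 0.126% by the exact interval. The background just given for the adult library applies to these shares too. In the iPax3 library the background barcodes held B2m at 91.9 and the cells at 87.9 CPM (ratio 0.957, 0.78 to 1.19), and Pax3, the factor that defines these cells, had a ratio of 1.06 (0.909 to 1.25). H2-K1 in iPax3 cells lay below that library's background, at 0.937 against 5.87 CPM from 6 background UMIs. For H2-D1 the ratio was 0.399 (0.149 to 1.51) and for Irf1 0.516 (0.169 to 2.57). Since Pax3 itself did not exceed the background, this ratio cannot say whether iPax3 cells made these genes. Their low shares of iPax3 cells cannot be told apart from free RNA.

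A deeper run of the same iPax3 barcodes, 3.47 times as many UMIs per cell at the median, gave the low genes more counts. It held 203 UMIs of H2-K1, 437 of H2-D1, 550 of Tap1, 298 of Irf1 and 19217 of B2m, which are 1.4, 3.02, 3.8, 2.06 and 133 CPM. With this run, adult over iPax3 came to 288 for H2-K1, 169 for H2-D1, 3.5 for B2m and 39 for Irf1. These lie below the intervals of the first run given above, which cover counting error only. For Tap1 (3.4), Tap2 (53.3) and Psmb9 (164) the value lay within the interval. The cause of the shift was not tested. The class that was at 0 or near it remained so: 2 UMIs of Psmb8, 16 of Psmb9, 5 of Nlrc5 and 11 of Tap2 in 2931 cells. Tap1 was seen in 15.9% of cells at this depth, H2-K1 in 5.97% and B2m in 97.3%. The order B2m, Tap1, H2-D1, Irf1, H2-K1 held in the deeper run; in the first run H2-D1 and Irf1 did not differ beyond their intervals (1.21 to 1.99 and 1.16 to 1.94).

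Within iPax3 cells, Tap1 varied over the clusters of the authors' deposited table from 0.0176 (cluster 1) to 0.0687 (cluster 7) mean UMIs per cell. B2m ranged there from 0.652 (cluster 1) to 1.36 (cluster 4) in the authors' deposited table. Cluster 1 of the authors' deposited table also had the highest Myog, a gene of differentiating myoblasts, at 5.68 against 0.405 to 0.901 in the others. These are the authors' means, with no error or test of this report's own.

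**Figure D5:**
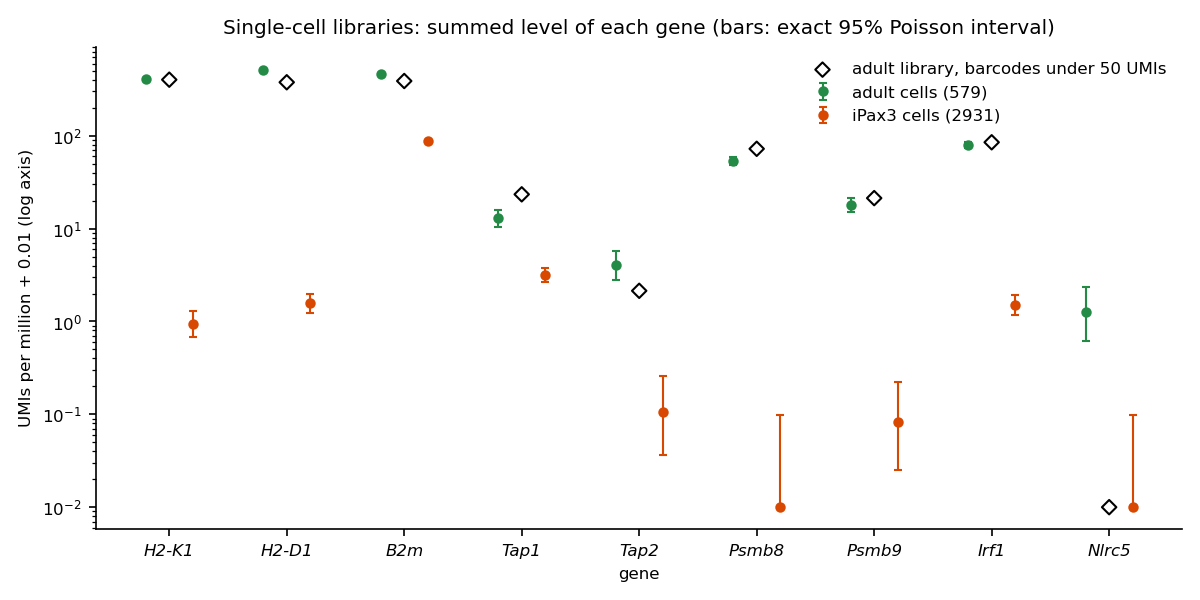
Summed level of the 9 genes in the single-cell libraries, in CPM plus 0.01 on a log axis, with exact 95% Poisson intervals; open diamonds are barcodes of the adult library with fewer than 50 UMIs. Adult cells lie above iPax3 cells for every gene, and for H2-K1 the adult cells (404) and the adult background (402) coincide.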

How the data were processed

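Bulk values are read counts per gene as deposited by the authors; per the submitters' processing notes, CASAVA 1.8, HISAT2 2.0.2 and Subread featureCounts 1.4.6 were used with mm10. The annotation release, strand setting and treatment of multi-mapping reads are not given in the sources used here. The single-cell UMI counts were deposited after Cell Ranger 2.2.0, per the submitters' processing notes. The authors' cluster tables hold a signal (mean UMIs per cell) and a log2 fold change; the p-values the authors deposited there were computed over cells and are not printed. A matrix labelled as another iPax3 sample repeats the adult and iPax3 barcodes and was used only as a deeper run.

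Symbols come from the single-cell gene files, positions from GENCODE M21. Genes were kept by filterByExpr (17571 of 47728), scaled by TMM and fitted with 1 mean per group in edgeR 4.0.16 (R 4.3.3, limma 3.58.1; DESeq2 1.42.0 as an alternative), calling genes at 0.05 after Benjamini-Hochberg adjustment across the tested genes; every adjusted p comes from this quasi-likelihood test. SE is that of the fitted log2 fold change, and log2 CPM used a prior count of 2. A floor of 3 counts over a group bounds folds against groups at 0, taken from the mean CPM of the higher group without its error. The model was tested on simulated counts. No replicate pair was a duplicate (chi-square divided by its degrees of freedom 8.02 to 510).

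A barcode counted as a cell when its total reached 10% of percentile 99 among the top 3000 barcodes, with 500 UMIs or more and under 10% mitochondrial UMIs; scrublet (scanpy 1.11.5) marked 23 adult and 0 iPax3 cells as doublets, kept except in an alternative. Ratios and shares carry exact 95% intervals (numpy 2.4.6, scipy 1.17.1, pandas 2.3.3), and intervals and floors cover counting error only. All 9 members are named, with up to 4 genes of each other list by smallest adjusted p and the 10 genes most like H2-K1, of which 1 is not reported here. Members, lists and comparisons were chosen with earlier results of these data known; the other end of the response element core was added after the promoters were read.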

Additional observations from a re-analysis of the deposited data

How the results depend on the processing

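Counts of called members changed under several settings. Fitting only the 2 groups compared gave 0 calls for Fet minus Emb, 4 for Neo minus Emb, 1 for iPax3 minus Emb, 1 for iPax3 minus Fet and 0 for iPax7 minus Emb. Thinning every library to the shallowest left 0, 5 and 1 calls for Fet, Neo and iPax3 minus Emb. DESeq2 gave 5 for Neo minus Fet, 1 for iPax3 minus Fet and 5 for iPax7 minus Neo. Without 1 library the counts ran from 1 to 3 for Fet minus Emb, 0 to 3 for Neo minus Fet, 1 to 5 for iPax3 minus Emb and 0 to 1 for iPax3 minus Fet. Replicate numbers did not pair samples (correlations −0.331 to 0.0767); with a replicate block Neo minus Emb had 7 calls and the others 0 to 3. Irf1 for iPax7 minus iPax3 reversed to −0.15 in thinned counts, and the value of Tap1: iPax7 minus Neo ran from −0.99 (without both iPax7 replicate 1 and Fet replicate 1) to 0.20 (without Neo replicate 1); the cause was not tested. In single cells all 9 intervals stayed off 1 in the 6 alternatives run. Of these, a minimum of 1000 UMIs kept the same 579 adult and 2931 iPax3 cells, so it could change nothing. A limit of 5% mitochondrial UMIs kept 563 adult and 805 iPax3 cells. Leaving out cells with endothelial or immune UMIs was not run, since no adult cell remained. Depth limits Fet replicate 1 and all genes near 0.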
